A study of Mus musculus with 80 samples.

Results

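The genes described here were the 6 metabotropic glutamate (mGlu) receptor genes Grm2, Grm3, Grm4, Grm5, Grm7 and Grm8, chosen by name, and all 6 were among the 25160 genes listed. Grm6, also listed, is given for comparison. The mGlu receptors are G protein-coupled receptors that sense the transmitter released by the cortical and thalamic inputs to the striatum. Grm5 encodes a receptor of group I, which couples through Gq to phospholipase C and to the release of calcium from internal stores, and which Homer proteins tether at the edge of the postsynaptic density. Grm2 and Grm3 encode the group II receptors, and Grm4, Grm7 and Grm8 belong to group III together with Grm6. Receptors of both these groups couple through Gi/o, which lowers cyclic AMP and dampens transmitter release at many presynaptic terminals. Medium spiny neurons (MSN) are the GABAergic projection neurons of the striatum, and carry such receptors both on their dendrites and on their own axon terminals.

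The mice were adult females heterozygous for 2 BAC transgenes, Drd1a-TdTomato and Drd2-EGFP. By the study's methods they were injected with dye and kept under anesthesia before perfusion, and apart from this no drug is named. Single cells of their dorsomedial striatum, marked there by an injected nuclear dye, were collected by FACS, and each sample was the cDNA of such a cell. Both groups of cells thus carried both transgenes, and differed in the reporter by which a cell was sorted: 40 cells were labelled Drd1a-TdTomato and 40 Drd2-EGFP. Each reporter is driven by the regulatory sequence of a dopamine receptor gene, and the Drd2 reporter also marks cholinergic interneurons. Of the Drd2-EGFP cells, 2 held more than 100 TPM of Chat, the gene of acetylcholine synthesis, and were set apart as cholinergic interneurons, which left 40 D1 MSN and 38 D2 MSN. The values were TPM, a scale of transcript abundance that corrects for transcript length. Levels of different genes are set side by side on this scale with a limit: cDNA of this kind covers long transcripts unevenly, with more reads near the 3′ end, and the annotated exons of the genes range from 3049 bases for Grm3 to 10247 for Grm5. A cell was counted for a gene above 1 TPM, and 95% intervals of shares of cells are exact (Clopper-Pearson) and cover counting error only. By the study's methods the cells came from 3 animals, and both subtypes were sorted from double-transgenic mice onto the same plates. The labels tie no cell to an animal, so each subtype was taken as 1 sample and no test was made. SD are over cells, which are not replicates. Plate FACS051_5 held 18 D1 MSN, 16 D2 MSN and both cholinergic interneurons, FACS086_4 held 21 and 19 MSN, and FACS086_9 held 1 and 3. The labels do not tie plates to animals, so plate and animal cannot be told apart.

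The labels were checked first. Drd1 exceeded 1 TPM in 38 of 40 D1 MSN against 3 of 38 D2 MSN, and Drd2 in 26 D2 MSN against 2 D1 MSN. All 10 MSN markers were found in both subtypes, and their summed level had a median of 3691 TPM (D1 MSN) and 4231 TPM (D2 MSN). Genes above 1 TPM numbered 648 to 8657 per D1 MSN (median 5722) and 1215 to 7942 per D2 MSN (median 4927.5). On FACS051_5 the medians were 5109 for D1 MSN and 5923 for D2 MSN, and on FACS086_4 they were 5730 and 4617. The subtype with more genes per cell thus differed between these plates. The part of this difference in the folds and shares by plate was not tested. Of the 78 MSN, 5 were set apart after their values were seen, as cells with other markers, the fewest genes, or the highest levels of the other subtype's Penk or Tac1. The Drd1a-TdTomato cell in well D04 of plate FACS051_5 went against its label. All 8 matched astrocyte markers (of 10 in the list) were above 1 TPM in it, with a summed level of 14658 TPM against at most 463 TPM in the other D1 MSN. Its Gja1, the main astrocytic gap junction gene, stood at 989 TPM and its Drd1 at 2.03 TPM, and its 10 MSN markers summed to 137 TPM against a median of 3732 TPM. The Drd1a-TdTomato cell in well B02 of plate FACS086_4 had the lowest number of genes, 648, with Drd1 listed at 0. In well C06 of FACS051_5, a Drd1a-TdTomato cell with 297 TPM of Drd1 also held 3676 TPM of Penk, the enkephalin gene of D2 MSN. In well A12 of plate FACS086_9, a Drd2-EGFP cell with 1215 genes held 1218 TPM of Tac1, the substance P gene of D1 MSN, and Drd2 was listed at 0. In well C05 of FACS086_4, a Drd2-EGFP cell held 1082 TPM of Tac1 beside 6558 TPM of Penk. The study reports usable data for most, but not all, of the cells it sequenced. The sources used here do not name the others, so every listed cell was kept and the cell set may differ from the study's. All 5 cells set apart were thus kept. Of the 6 receptor genes, these cells held above 1 TPM only Grm3 in D04 (9.05 TPM) and Grm5 in C05 (92.4 TPM), and values without the 5 are given with each gene.

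Grm5 was the most abundant of the 6 receptor genes in both subtypes (chromosome 7 of GRCm38, 87584168 to 88134907, plus strand). In D1 MSN it ran from 0.0504 TPM to 378 TPM with a median of 141 TPM, and in D2 MSN from 0.295 TPM to 712 TPM with a median of 110 TPM. These ranges overlapped over most of their length, and the 2 highest values, 712 and 635 TPM, were in D2 MSN of plate FACS051_5. The mean was 146 TPM in D1 MSN (SD 109.6, n = 40 cells) against 166 TPM in D2 MSN (SD 164, n = 38 cells), and the log2 fold, taken of the mean TPM plus 1 with D1 over D2, was -0.18. Its direction was not the same on the large plates: the log2 fold was -0.77 for FACS051_5 and 0.37 for FACS086_4. On each of these plates, the subtype with the higher mean of Grm5 also had the higher median of genes per cell.

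More than 1 TPM of Grm5 was found in 35 of 40 D1 MSN (87.5%, 73.2% to 95.8%) and, among D2 MSN, in 35 of 38 (92.1%, 78.6% to 98.3%). Over the 78 MSN its mean of 156 TPM exceeded that of 97.3% of all listed genes. Of the summed mean TPM of the 6 genes, it supplied 62.9% in D1 MSN, at 146 of 233 TPM, and 64.8% in D2 MSN, at 166 of 256 TPM. Grm5 was the highest of the 6 in 26 of the 36 D1 MSN that had any of them above 1 TPM, and in 30 of 37 such D2 MSN. Each cell held a value above 0, and the 8 MSN at or below 1 TPM ran from 0.0504 to 0.822 TPM. Of the 5 cells set apart, 4 were among these 8, and that in C05 was not. Without the 5, Grm5 was found in 94.6% of D1 MSN and 94.4% of D2 MSN, and the log2 fold was -0.13.

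**Figure D1:**
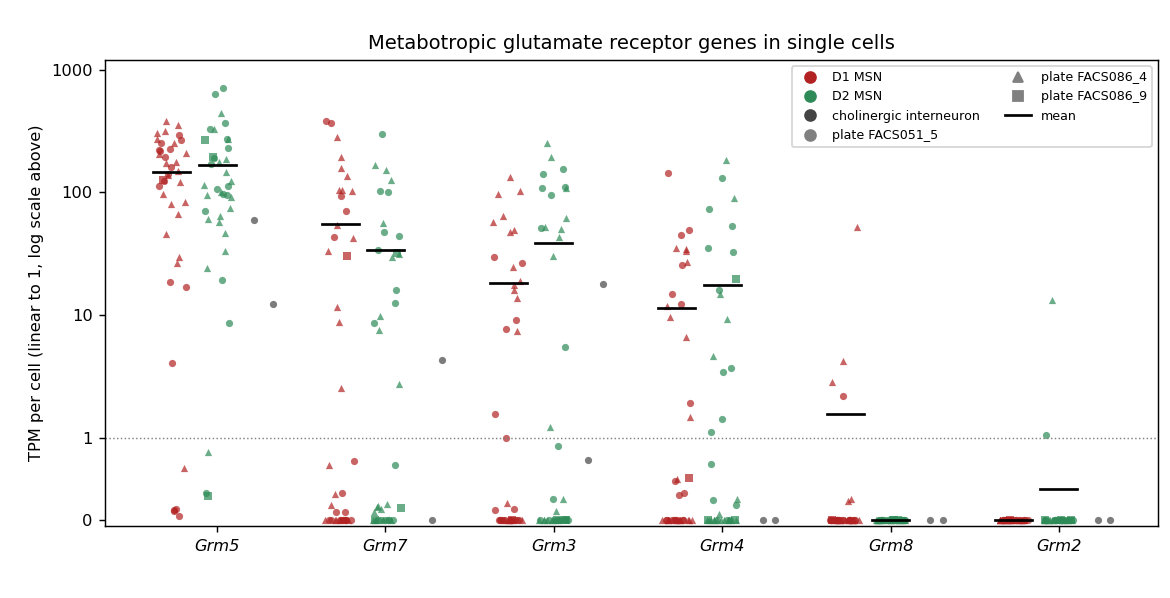
TPM of each receptor gene in each of the 80 cells (points, by subtype in colour and by plate in shape; y axis linear to 1 TPM and logarithmic above; black bars are means over cells). Grm5 lies above 1 TPM in 70 of 78 MSN, Grm7, Grm3 and Grm4 are mostly split between cells near 0 and cells above 10 TPM, and Grm8 and Grm2 are at 0 in nearly all cells.

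Grm7 encodes a group III receptor that sits in the presynaptic active zone and responds only to high glutamate (chromosome 6, 110645581 to 111567230, plus strand). It ran from 0 to 378 TPM in D1 MSN (median 0.691 TPM) and from 0 to 297 TPM in D2 MSN (median 1.70 TPM). The 2 highest cells, at 378 and 366 TPM, were D1 MSN of FACS051_5, and the values of the subtypes overlapped. The mean was 55.4 TPM in D1 MSN (SD 97.2) against 33.6 TPM in D2 MSN (SD 62.5), a log2 fold of 0.70, with 0.34 on FACS051_5 and 0.91 on FACS086_4. Cells with Grm7 numbered 19 in each subtype, a share of 47.5% (31.5% to 63.9%) for D1 MSN and 50.0% (33.4% to 66.6%) for D2 MSN. The median over these 19 cells was 93.6 TPM for D1 MSN and 33.6 TPM for D2 MSN, and 9 D1 MSN against 6 D2 MSN exceeded 100 TPM. The 5 highest cells held 62.1% of the D1 sum and 65.9% of the D2 sum. By plate, 5 of 18 D1 MSN had it on FACS051_5 and 13 of 21 on FACS086_4, whereas 9 of 16 and 9 of 19 D2 MSN did. Without the 5 cells set apart, the log2 fold was 0.74, and without the highest MSN 0.47. The summed astrocyte markers had a median of 76.7 TPM in D1 MSN with Grm7 (15.9 to 463) against 16.4 TPM in those without (1.24 to 14658, the latter in D04). In D2 MSN the medians were 57.3 TPM (10.4 to 569) against 11.4 TPM (3.63 to 1120). Of these markers Slc4a4 had the highest median, 25.9 TPM for D1 MSN and 24.3 TPM for D2 MSN, and its Spearman's rho with Grm7 was 0.56. Cells with Grm7 also had more genes above 1 TPM. The medians with and without it were 6545 and 5239 in D1 MSN, and 6039 and 4059 in D2 MSN. The part of these markers, or of the number of genes, in the level of Grm7 was not tested.

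Grm3, the group II receptor gene that neurons share with astrocytes, showed the largest fold of the 4 genes for which one could be taken (chromosome 5, 9485541 to 9725170, minus strand). It ran from 0 to 132 TPM in D1 MSN (median 0.165 TPM) and from 0 to 250 TPM in D2 MSN (median 0.180 TPM). The highest D2 MSN, at 250, 194, 155 and 141 TPM, lay above every D1 MSN, and the rest overlapped. The mean was 18.1 TPM in D1 MSN (SD 32) against 38.4 TPM in D2 MSN (SD 63.1), a log2 fold of -1.04. Of the 14631 genes averaging 1 TPM or more over the MSN and above 0 in both subtypes, 12.9% had a log2 fold below -1 and 18.4% one above 1. Of the 4 receptor genes among them, 1 was past -1 and 0 past 1, which sets nothing apart from that background. The size of the Grm3 fold was larger than that of 70.5% of these genes.

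The number of cells with Grm3 was not higher in D2 MSN. Above 1 TPM were 19 D1 MSN (47.5%, 31.5% to 63.9%) against 16 D2 MSN (42.1%, 26.3% to 59.2%), and the median of those cells was 24.5 TPM for D1 MSN and 78.4 TPM for D2 MSN. By plate, the mean in D2 MSN was 41.8 TPM on FACS051_5 and 41.6 TPM on FACS086_4. In D1 MSN it was 4.21 TPM on FACS051_5 and 30.9 TPM on FACS086_4. The log2 fold was accordingly -3.04 on FACS051_5 and -0.42 on FACS086_4, so only the former was below -1. Without the single highest MSN it was -0.82, which is within 1 in size. Without the 5 cells set apart it was -1.03, and with C05 kept and the other 4 left out -0.99.

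Since astrocytes also express Grm3, the astrocyte markers were set beside it. The summed level of the 8 matched markers had a median of 43.5 TPM (3.33 to 14658) in the 19 D1 MSN with Grm3 and 28.5 TPM (1.24 to 463) in the 21 without. In D2 MSN the medians were 53.8 TPM (7.83 to 569) in the 16 cells with Grm3 and 14 TPM (3.63 to 1120) in the 22 without. The 8 markers were not alike. Slc4a4, a bicarbonate cotransporter gene, had the highest median, 25.9 TPM for D1 MSN and 24.3 TPM for D2 MSN, and S100b exceeded 1 TPM in 38 of the D1 and 36 of the D2 MSN. Slc1a3, a glutamate transporter gene, was above 1 TPM in 17 and 14 cells, and outside the cell in D04 reached 17.6 TPM among D1 MSN and 45.5 TPM among D2 MSN. Aldoc was above 1 TPM in 6 and 5 cells, Slc1a2 in 4 and 4, and Aqp4 in 3 and 2, the cell in D04 included. Outside that cell, Slc1a2 reached 3.81 TPM among D1 MSN and 225 TPM among D2 MSN, and Slc4a4 reached 450 and 1115 TPM. Outside the cell in D04, Gja1 reached at most 0.676 TPM and Aldh1l1 at most 0.139 TPM. Without the cell in D04, the log2 fold of Grm3 was -1.03, and the part of the markers in the level of Grm3 was not tested.

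Grm4 encodes a group III receptor known from the axon terminals of striatal neurons in the globus pallidus (chromosome 17, 27422387 to 27521403, minus strand). It ran from 0 to 143 TPM in D1 MSN (median 0.153 TPM) and from 0 to 184 TPM in D2 MSN (median 0.212 TPM), with overlapping values. The mean was 11.3 TPM in D1 MSN (SD 25.5) against 17.7 TPM in D2 MSN (SD 39.7), a log2 fold of -0.60, with -0.41 on FACS051_5 and -0.97 on FACS086_4. These means rest on few cells: the 5 highest held 67.8% of the D1 sum and 78.7% of the D2 sum, and without the highest MSN the log2 fold was -0.20. Without the 5 cells set apart it was -0.57. Above 1 TPM were 15 D1 MSN (37.5%, 22.7% to 54.2%) against 16 D2 MSN (42.1%, 26.3% to 59.2%). The D2 share was 10 of 16 cells on FACS051_5 and 5 of 19 on FACS086_4, while the D1 share was 7 of 18 and 8 of 21. In D2 MSN the 5 matched oligodendrocyte markers (of 8) summed to a median of 30.3 TPM in the cells with Grm4 (0 to 84.8) against 0.164 TPM in those without (0 to 52.7). In D1 MSN the medians were 2.06 TPM (0 to 55.3) against 3.02 TPM (0 to 359). Such a gap was not particular to Grm4. With and without Grm3, the medians were 15.9 and 0.693 TPM in D2 MSN, and 3.66 and 2.70 TPM in D1 MSN. With and without Grm7, they were 14.9 and 0.683 TPM in D1 MSN, and 3.74 and 1.77 TPM in D2 MSN. Cells with Grm4 also had more genes above 1 TPM in both subtypes. The medians with and without it were 6231 and 4123 in D2 MSN, and 6896 and 5429 in D1 MSN. The summed astrocyte markers had medians of 62.2 and 28.5 TPM in D1 MSN with and without Grm4, and 44.9 and 15.5 TPM in D2 MSN. The part of these markers in the level of Grm4 was not tested.

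**Figure D2:**
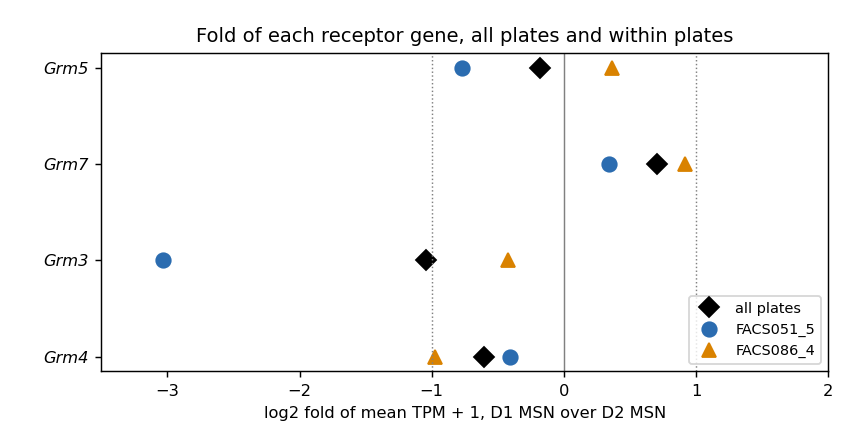
Log2 fold of mean TPM plus 1, D1 MSN over D2 MSN, for the 4 genes above 0 in both subtypes (diamonds, all plates; circles and triangles, the plates with at least 16 cells of each subtype; dotted lines at -1 and 1). Grm3 and Grm4 lie below 0 and Grm7 above 0 on both plates, and Grm5 lies on either side of 0.

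Grm8 and Grm2 were found in few cells. Over the 78 MSN the mean of Grm8 exceeded that of 34.9% of all listed genes, and the mean of Grm2 that of 20.5%. Grm8, a group III receptor gene (chromosome 6, 27275119 to 28135178, minus strand), exceeded 1 TPM in 4 of the 40 D1 MSN (10%, 2.79% to 23.7%), at 52.6, 4.22, 2.83 and 2.17 TPM. It was listed at 0 in all 38 D2 MSN (0%, up to 9.25%). These intervals overlap, the difference between the subtypes was not tested, and no fold is given against a group at 0. Of the 4 cells, 3 were on FACS086_4 and 1 on FACS051_5, and without the cells set apart the share was 10.8%. Grm2, the other group II gene (chromosome 9, 106643095 to 106656082, minus strand), was listed at 0 in all 40 D1 MSN (0%, up to 8.81%) and exceeded 1 TPM in 2 of 38 D2 MSN (5.26%, 0.644% to 17.7%), at 13.3 and 1.05 TPM, or 5.56% without the cells set apart. For scale, genes of the other subtype were found at low levels too: Drd1 reached 4.05 TPM in a D2 MSN, and Drd2 reached 5.74 TPM in the D1 MSN in C06 and 1.08 TPM in the others. Penk was above 1 TPM in all 40 D1 MSN, with a median of 11.4 TPM. Grm6, a group III gene known from retinal ON bipolar cells, was above 1 TPM in 1 MSN, at 2.41 TPM.

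**Figure D3:**
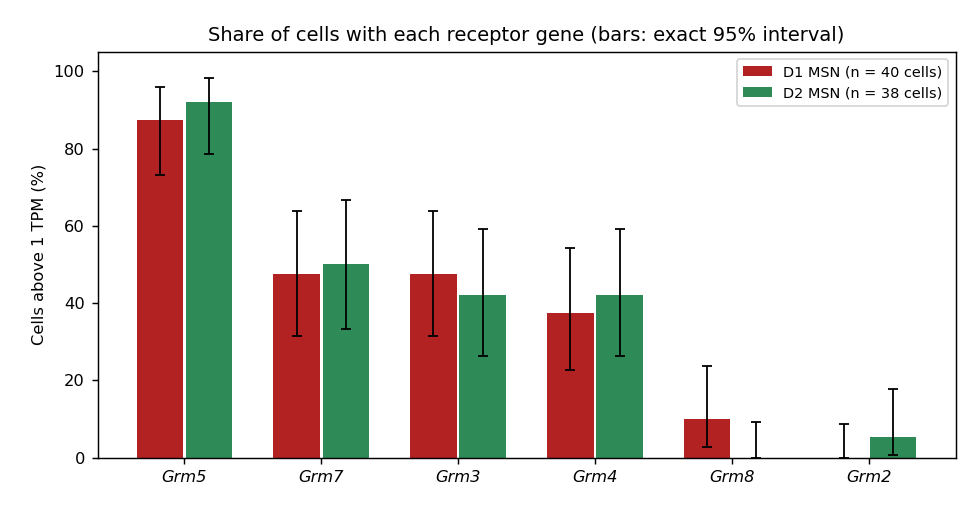
Share of the 40 D1 MSN and 38 D2 MSN above 1 TPM for each receptor gene (bars, percent; error bars, exact 95% intervals for counting error). The intervals of D1 and D2 MSN overlap for each of the 6 genes.

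By mean level the order in D1 MSN was Grm5, Grm7, Grm3, Grm4, Grm8 and Grm2, and in D2 MSN Grm5, Grm3, Grm7, Grm4, Grm2 and Grm8. Grm5 was above its neighbour in most single cells: it was above Grm7 in 32 of 40 D1 MSN and above Grm3 in 32 of 38 D2 MSN. Grm7 was above Grm3 in 18 D1 MSN and below it in 16, and Grm3 was above Grm7 in 14 D2 MSN and below it in 18. Next in the order, Grm3 was above Grm4 in 16 D1 MSN and below it in 14, and Grm7 was above Grm4 in 23 D2 MSN and below it in 9. The order of Grm7 and Grm3 by mean in D2 MSN was thus not the order in most single cells. Nor was that of Grm7 and Grm3, or of Grm3 and Grm4, in D1 MSN, at 18 and 16 of 40 cells. The SD over cells of each of these genes other than Grm5 was larger than its mean.

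Single cells held different sets of the 6 genes. In D1 MSN, 4 cells had none above 1 TPM, 6 had 1, 10 had 2, 14 had 3 and 6 had 4. In D2 MSN, 1 cell had none, 9 had 1, 13 had 2, 8 had 3, 6 had 4 and 1 had 5. Each of the 31 MSN with Grm4 also had Grm5, as did 37 of the 38 with Grm7 and 32 of the 35 with Grm3. Grm4 and Grm7 were found together in 20 MSN, Grm3 and Grm7 in 19, and Grm3 and Grm4 in 17. Over all 78 MSN, 89.7% had Grm5, 48.7% Grm7, 44.9% Grm3 and 39.7% Grm4. Whether genes were found together more often than these shares give was not tested.

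These sets moved with the number of genes found in a cell. In the 39 MSN with more than the median of 5506 genes, 39 had Grm5, 28 had Grm7, 24 had Grm4 and 21 had Grm3. In the 39 others, 31 had Grm5, 10 had Grm7, 7 had Grm4 and 14 had Grm3. For Grm7 the shares were 71.8% (55.1% to 85.0%) and 25.6% (13.0% to 42.1%), and for Grm4 61.5% (44.6% to 76.6%) and 17.9% (7.54% to 33.5%), intervals that did not overlap. Those of Grm5, 100% (91.0% to 100%) and 79.5% (63.5% to 90.7%), did not overlap either. Those of Grm3, 53.8% (37.2% to 69.9%) and 35.9% (21.2% to 52.8%), did overlap. Genes per cell were counted with the same limit of 1 TPM, so shares rise with this split for genes in general. The rise over all listed genes was not computed, so neither these gaps nor the rho values that follow are set apart from it. Over the 78 MSN, Spearman's rho between TPM and genes per cell was 0.58 for Grm4, 0.56 for Grm7, 0.48 for Grm5 and 0.22 for Grm3. The part of the number of genes found in the sets of receptors per cell was not tested.

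**Figure D4:**
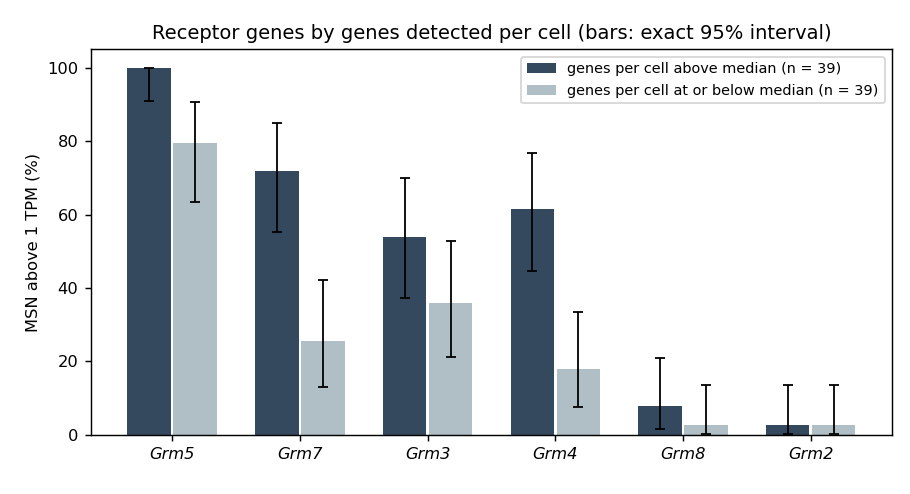
Share of MSN above 1 TPM for each receptor gene, in the 39 MSN with more genes per cell than the median and the 39 at or below it (bars, percent; error bars, exact 95% intervals for counting error). Grm7 and Grm4 show the widest gaps, 71.8% against 25.6% and 61.5% against 17.9%.

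The 2 cholinergic interneurons carried Grm5 at 59.4 TPM (well A08 of FACS051_5) and 12.3 TPM (well B02 of the same plate). Both values lay below the medians of D1 and D2 MSN, in cells with 10912 and 10251 genes. Grm3 was at 0.727 and 17.8 TPM, and Grm7 at 0 and 4.33 TPM. Grm2, Grm4 and Grm8 were listed at 0 in both cells. With 2 cells, no spread for this cell type can be given.

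Genes whose products act with the receptors were taken from lists of partners. Of 28 genes of group I signalling, all were matched and 25 averaged 1 TPM or more with both subtypes above 0. A log2 fold above 1 was found for 3 of these 25 and below -1 for 3, where the background was 18.4% and 12.9%, and the median log2 fold was 0.23 against 0.08. The most abundant were Prkcb, the beta form of protein kinase C, at 686 TPM over the MSN, Ncdn (neurochondrin, which binds mGlu5) at 209 TPM, and Homer1 at 183 TPM. The log2 fold was 0.35 for Prkcb and 0.28 for Homer1, and Ncdn averaged 208 TPM in D1 MSN against 209 TPM in D2 MSN. The folds of largest size were those of Plcb4, a phospholipase C gene (-2.50), Shank3, a scaffold of the postsynaptic density (-1.69), and Homer2 (1.68). Plcb4 averaged 0.496 TPM in D1 MSN against 7.49 TPM in D2 MSN, and was above 1 TPM in 7 and 8 cells. Shank3 averaged 5.70 and 20.6 TPM with 15 cells in each subtype, and its log2 folds on FACS051_5 and FACS086_4 were -1.71 and -1.80. Homer2 exceeded 1 TPM in 3 D1 MSN and in 0 of the D2 MSN.

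Of 28 genes of Gi/o signalling and binding partners of group II and III receptors, 26 were matched and 25 had a fold. Above 1 were 3 and below -1 were 4 of the 25, where the background was 18.4% and 12.9%. The median log2 fold was 0.06 against 0.08 in the background. These values set neither direction apart from that background. Among the most abundant were Gnb2, a G protein beta subunit, at 474 TPM, and Rgs9, which shortens Gi/o signals, at 379 TPM. Their log2 folds were 0.13 for Gnb2 and -0.38 for Rgs9. The folds of largest size were those of Gng2, a G protein gamma subunit (2.44), Grip1, a PDZ scaffold (-2.26), and Kcnj3, a G protein-gated potassium channel subunit (1.47). These 3 genes were above 1 TPM in at most 8 cells of either subtype. On FACS051_5 and FACS086_4, the fold of Gng2 was 3.73 and 0.43, that of Grip1 -2.60 and -1.25, and that of Kcnj3 1.10 and 0.78.

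**Figure D5:**
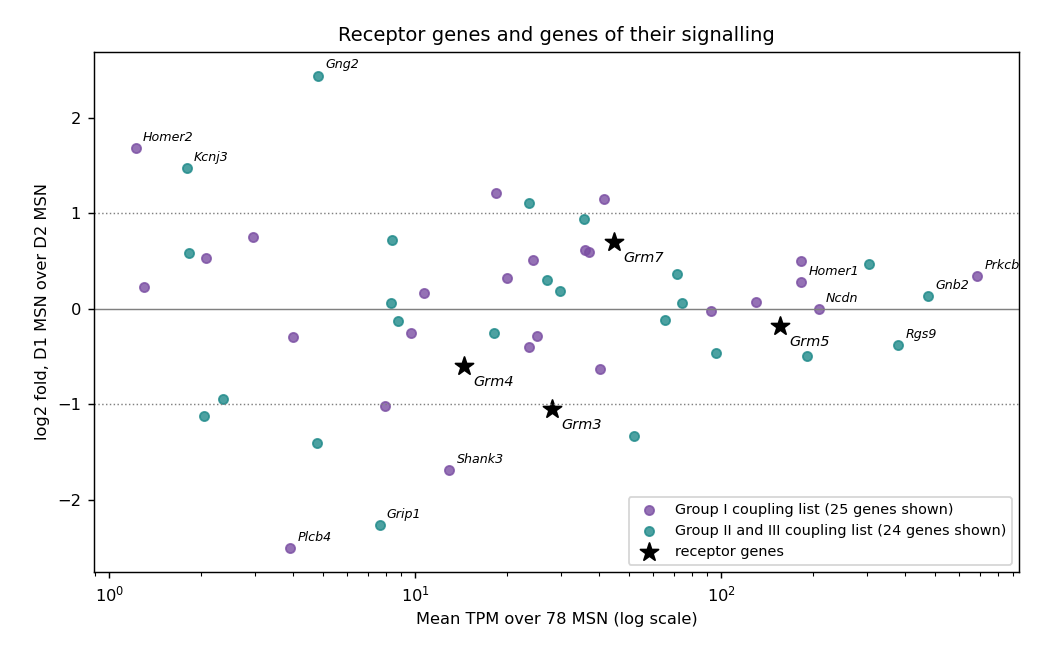
Log2 fold, D1 over D2 MSN, against mean TPM over the 78 MSN (log scale) for partner genes of group I (25) and of groups II and III (24 shown) and 4 receptor genes (stars), with dotted lines at -1 and 1. Genes with a mean above 100 TPM, Grm5 among them, lie within the dotted lines, and the folds of largest size, Plcb4 at -2.50 and Gng2 at 2.44, belong to genes with a mean under 5 TPM.

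For each receptor gene above 1 TPM in at least 15 MSN, the genes most like it over the 78 MSN were taken by Spearman's rho among 9574 other genes found as often. For Grm5 these were Cntnap2, a cell adhesion gene of the neurexin family (0.54), Ptp4a2, a phosphatase gene (0.53), and Gcn1l1 (0.52). For Grm7 they were Bin1, an adaptor that bends membranes (0.57), Slc4a4, which is on the astrocyte marker list (0.56), and RP24-531B24.1 (0.56). Grm4 had Kcnq3, a subunit of the M-type potassium channel (0.58), Tmod1, which caps actin filaments (0.53), and Ldhd, a D-lactate dehydrogenase (0.53). Grm3 had Cacnb2, a calcium channel beta subunit (0.48), Rcbtb1 (0.46) and Arhgap6, a GTPase-activating protein gene (0.45). These values are descriptions: the cells share plates and differ in the number of genes found, and the rho of Kcnq3 with genes per cell (0.61) was itself higher than its rho with Grm4.

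Some of the receptor genes overlap other annotated genes. An antisense gene on the opposite strand spans an exon of Grm7 (Gm20387, mean 0.472 TPM over the 80 cells) and of Grm2 (Gm28111). Whether the counting used strand is not given in the sources used here, so reads of such pairs may not have been told apart.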

How the data were processed

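The deposited table gave TPM, made by the authors, with 1 column per cell. Cells were isolated after injection of a nuclear dye into the dorsomedial striatum, and cDNA was made with a SMARTer kit. Per the methods, reads were aligned with STAR 2.5.0 to mm10/GRCm38 and counted with featureCounts 1.5.1. How the TPM were made is not given in the sources used here. TPM keep no reads, so the depth of each cell is not known from the files, and 0 TPM is written as listed at 0. Listed genes summed to 506588 to 958040 TPM per cell.

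Groups came from the reporter label. No animal is named, so each subtype is 1 sample. The log2 fold was that of mean TPM plus 1 in D1 over D2 MSN, with genes averaging at least 1 TPM and above 0 in both subtypes as background. A log2 fold past 1 in size was counted as past the limit. Named partner genes were, per list, the 3 of highest mean and the 3 of largest fold, and the likeness rule named 3 genes per receptor. Some genes these rules cover are not reported here. Receptors and lists were chosen with earlier results of these data known. A comparison of protein sequences had been planned and was not run. Matched markers of other cell types were summed per cell.

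Alternatives changed the pseudocount (0.1 or 10 TPM), the mean, the scaling, the plates, the cells, the detection limit (0 or 10 TPM) and the filter. After the data were seen, leaving out the cell in D04, the 5 cells set apart (or 4 of them) or the highest MSN, and keeping the cholinergic interneurons in the D2 shares, were added. The fold was checked as a calculation on random groups of these cells with some genes raised by a known amount. The exact interval was checked on simulated counts, and the other steps were not checked in this way. Gene positions are from GENCODE M21 (GRCm38). Software was Python 3.11.15 with scipy 1.17.1, pandas 2.3.3, numpy 2.4.6, and matplotlib 3.10.9 for figures.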

Additional observations from a re-analysis of the deposited data

How the results depend on the processing

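Over 12 alternatives each, the log2 folds of Grm3, Grm4 and Grm7 kept their sign, and that of Grm5 did in 11, the exception being FACS086_4 alone (0.37). Grm3 was within 1 in size in 7 of 12, and ranged from -3.04 on FACS051_5 alone to -0.36 with the difference of mean log2 values. With that difference, Grm4 was at -0.18 and Grm7 at 0.28. On FACS051_5 alone, the share of D2 MSN with Grm4 was 62.5% and that of D1 MSN with Grm7 27.8%. Counting values above 0 TPM gave Grm5 in 100% of both subtypes and Grm7 in 65.0% of D1 MSN and 68.4% of D2 MSN, and counting above 10 TPM gave Grm8 in 2.50% of D1 MSN. The other 89 shares under an alternative stayed within their intervals. The 2690 genes with a log2 fold above 1 became 875 with a mean of at least 10 TPM and 585 with a pseudocount of 10 TPM, and the 1885 below -1 became 664 and 392. No paired analysis was possible because the values come from no test and cells share a plate and not a number, so folds within plates are given instead. Causes were not tested, and the depth of each cell is not known from the files.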
